A study of Mus musculus with 5 samples.

Results

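Transcripts of 5 genes of plasminogen activation were followed in mouse skin keratinocytes: the urokinase receptor gene Plaur, the activator genes Plau and Plat, and the inhibitor genes Serpine2 and Serpinb2. They were proposed from earlier results of these same data and looked up by symbol. All 5 were found among the 56691 gene IDs of the count table and passed the filter on low counts, as did 18583 genes in all. Cells came from the back skin of mice aged 28 days. Of the 5 libraries, 3 (GFP 1, 2 and 3) came from cells sorted for GFP, which the labels call Lrig1 positive keratinocytes and epidermal stem cells and give the genotype Lrig1 positive. The other 2 (bulk 1 and 2) came from cells described as the whole basal keratinocyte population, without that sort, with the genotype given as WT. Markers of suprabasal, hair follicle, immune and pigment cells were also found in bulk, as given below. No treatment is named for either group, and the sources used here do not give the construct that carries GFP, the gates or any pooling of animals.

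Plasminogen is a circulating zymogen that urokinase (Plau) or tissue plasminogen activator (Plat) cuts to the broad serine protease plasmin. The urokinase receptor, a surface protein of the Ly6 family held by a lipid anchor, keeps urokinase at the cell membrane, while serpins such as Serpinb2 and Serpine2 trap the activators in inactive complexes. In skin the system is best known from wound edge keratinocytes, which use it to move through fibrin, and Serpinb2 is a largely intracellular serpin of epidermis.

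The libraries held 56829330 to 105887450 counts. Lrig1, which names the sorted cells and so checks the labels, was at 163 and 155 CPM (counts scaled to a common library size with TMM factors) in bulk 1 and 2 and at 210, 226 and 213 CPM in GFP 1, 2 and 3. The log2 difference of 0.44 ± 0.18 did not pass edgeR's test (adjusted p = 0.292), but did in a fit with the title numbers of the libraries as a replicate block (0.00676). That fit called 36% of all tested genes, 16.4% as higher, so its call of Lrig1 says little about the sort. Bulk 1 and GFP 1 share a number, as do bulk 2 and GFP 2, but libraries of the same number carry different genotype labels, so it is not settled that they come from the same mouse. Summed over 6 basal keratinocyte markers, the level ran from 17810 to 20370 CPM in bulk and from 28240 to 35160 CPM in GFP libraries, and over 6 suprabasal markers from 15970 to 19950 CPM and from 7928 to 11370 CPM. Hair matrix and root sheath, T cell, myeloid and melanocyte markers lay lower in every GFP library than in either bulk library, each for 6 of 6 genes. So did 18.5% of all tested genes. GFP 3 was the only library with abundant Xist (53714 counts, against 0 to 8), and by this pattern sex was not matched across the groups. In these bulk RNA measurements, fewer cells of a type and less RNA per cell cannot be told apart.

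The promoter windows of Plaur, Serpinb2 and Serpine2, the members with a window in the RefSeq table, are shown to describe their sequence. A link between these letters and the transcript levels was not tested. Each window runs from 250 bases before to 50 bases after a start, 5′ to 3′ on the gene's strand, as given by RefSeq on GRCm38.p6. Capitals mark matches to the AP-1 element TGANTCA or the TATA box TATAAA, searched on both strands. The CRE TGACGTCA, the GC box GGGCGG and the Ets core GAGGAAG were searched too and are left in lower case. The windows are chr7:24462233-24462532 (+ strand) for Plaur, chr1:107511173-107511472 (+) for Serpinb2 and chr1:79858616-79858915 (- strand) for Serpine2. Windows of Plau and Plat are not shown.
Plaur: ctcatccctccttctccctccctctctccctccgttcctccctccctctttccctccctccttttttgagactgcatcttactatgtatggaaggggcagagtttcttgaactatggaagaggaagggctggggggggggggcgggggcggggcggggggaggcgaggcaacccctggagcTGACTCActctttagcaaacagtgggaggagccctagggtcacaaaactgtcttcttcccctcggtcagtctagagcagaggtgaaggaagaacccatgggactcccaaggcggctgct
Serpinb2: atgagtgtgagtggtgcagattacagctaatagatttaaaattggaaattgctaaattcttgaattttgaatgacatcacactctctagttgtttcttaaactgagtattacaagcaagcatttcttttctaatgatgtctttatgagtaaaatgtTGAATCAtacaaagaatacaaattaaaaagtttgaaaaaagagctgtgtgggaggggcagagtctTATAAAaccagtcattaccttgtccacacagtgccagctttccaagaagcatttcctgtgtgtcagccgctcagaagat
Serpine2: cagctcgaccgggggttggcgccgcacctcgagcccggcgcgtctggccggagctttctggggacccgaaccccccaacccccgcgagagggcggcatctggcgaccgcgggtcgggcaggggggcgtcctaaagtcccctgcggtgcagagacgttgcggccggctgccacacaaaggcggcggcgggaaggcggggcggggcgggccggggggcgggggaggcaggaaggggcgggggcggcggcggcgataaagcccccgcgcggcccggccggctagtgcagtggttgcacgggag

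The Plaur window held 1 AP-1 match, TGACTCA, 69 to 63 bases before the start (first base at -69, last base at -63). The Serpinb2 window held the match TGAATCA from -94 to -88 and a TATA box from -29 to -24. A further RefSeq start of this gene gives an overlapping window with the same letters. Counted from that start, they lie from -181 to -175 and from -116 to -111. Serpine2 had neither motif. It was the richest in G and C, with 77.7% against 59.3% for Plaur and 35.3% for the Serpinb2 window shown, and a median of 52.7% over 32851 promoter windows. It held 6 matches to the GC box GGGCGG, some sharing bases with the next, Plaur held 3 and Serpinb2 none. Plaur also held the Ets core from -131 to -125, and no member's window held the CRE. Of the 32851 windows of this length, 7.81% held TGANTCA, 13.6% TATAAA, 35.7% GGGCGG, 13.6% GAGGAAG and 1.79% TGACGTCA. A match describes the letters and does not show that a factor binds there.

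Plaur encodes the receptor that binds urokinase and its proenzyme on the cell surface. Plaur (ENSMUSG00000046223.11) was at 8.46 and 12.6 CPM in bulk 1 and 2 and at 28.3, 36.8 and 23.5 CPM in GFP 1, 2 and 3. Every sorted library lay above both bulk libraries, and the lowest sorted value was still well clear of the highest bulk value. The means were 10.5 ± 2.93 CPM in bulk (SD, n = 2) and 29.5 ± 6.76 CPM in sorted cells (n = 3), 2.80-fold apart. These values rest on 506 and 1405 counts in bulk and on 2193 to 2442 counts in sorted libraries. The log2 difference of GFP over bulk was 1.49 ± 0.28 (SE). Among the libraries that share a title number, the fold was 3.34 for GFP 1 over bulk 1 and 2.92 for GFP 2 over bulk 2.

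Plau and Plat encode the activators that cut plasminogen, urokinase acting mainly at the receptor and tissue plasminogen activator mainly on fibrin. Plau (ENSMUSG00000021822.4) was at 46.3 and 51.8 CPM in bulk and at 54.6, 35.9 and 43.5 CPM in GFP 1, 2 and 3. The bulk values lay inside the range of the sorted ones, and the 2 title numbers went opposite ways, with GFP over bulk at 1.18-fold for the first and 0.694-fold for the second. The log2 difference was -0.14 ± 0.22. The ligand's transcript thus overlapped between the groups in the libraries where that of its receptor did not.

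Plat (ENSMUSG00000031538.7) was at 23.2 and 35.0 CPM in bulk and at 27.4, 58.2 and 21.9 CPM in GFP 1, 2 and 3. GFP 2 stood above the other libraries and the remaining sorted libraries lay within or below the bulk range. The log2 difference of 0.30 ± 0.41 turned to -0.24 without GFP replicate 2. Within title numbers the sorted library was higher in both cases, 1.18-fold and 1.66-fold. Plat varied most within the sorted group by spread relative to its mean (35.8 ± 19.6 CPM, n = 3), the highest library being 2.66 times the lowest.

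Serpinb2, also called plasminogen activator inhibitor type 2, was by far the most abundant member. Serpinb2 (ENSMUSG00000062345.11) was at 1887 and 1518 CPM in bulk 1 and 2 and at 3576, 3570 and 3525 CPM in GFP 1, 2 and 3. The sorted libraries were nearly level, the highest being 1.01 times the lowest, and all lay above both bulk libraries. The means were 1703 ± 261 CPM (n = 2) and 3557 ± 27.9 CPM (n = 3), a 2.09-fold difference and a log2 difference of 1.06 ± 0.27. By mean CPM it ranked 49 among 18583 genes in bulk and 21 in sorted cells, and took 0.170% and 0.356% of the counts. Its exons share 291 bases with Serpinb10 on the same strand in the M21 annotation, and Serpinb10 held 861 to 4038 counts per library, against 112866 to 329079 for Serpinb2.

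Serpine2 (protease nexin 1), a secreted inhibitor of thrombin and of both activators, was the least abundant member and the only one of the 5 to lie lower in every sorted library. Serpine2 (ENSMUSG00000026249.11) was at 3.51 and 8.07 CPM in bulk and at 3.07, 2.34 and 1.37 CPM in GFP 1, 2 and 3. The groups did not overlap, but the gap between bulk 1 and GFP 1, the same title number, was small (0.873-fold), while GFP 2 stood at 0.290-fold of bulk 2. The log2 difference of -1.36 ± 0.45 shrank to -0.65 without bulk replicate 2. Serpine2 is also known from the dermal papilla and other dermal cells. The sum of 6 dermal papilla markers was 12.8 and 27.2 CPM in bulk and 6.09, 8.19 and 12.6 CPM in GFP 1, 2 and 3, with 3 of 6 genes lower in all sorted libraries. That of 6 fibroblast markers was 196 and 153 CPM in bulk and 168, 36.1 and 9.56 CPM in sorted cells, with 2 of 6 lower throughout. Over all tested genes, 18.5% lay lower in every sorted library. No marker of either list was at 0 in all libraries, and the part of these cells in the Serpine2 difference was not tested.

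**Figure D1:**
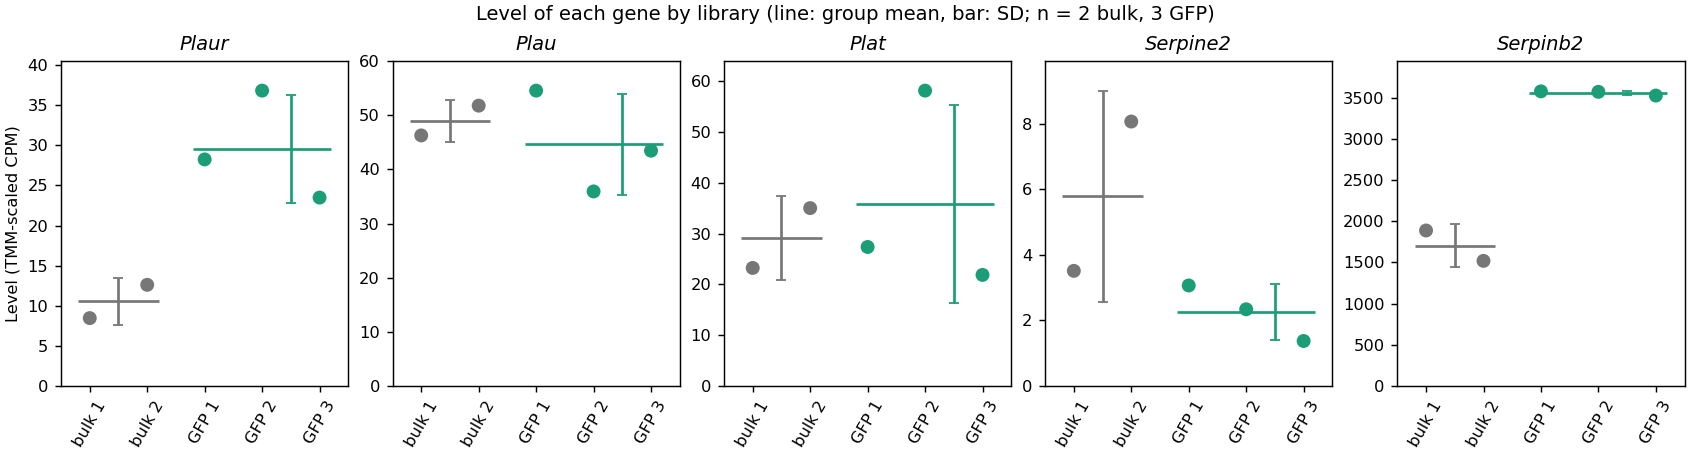
Level (TMM-scaled CPM, axes from 0) of the 5 genes in each library, grey for bulk and green for GFP-sorted cells, with lines at group means and bars of 1 SD (n = 2 and 3). Plaur and Serpinb2 lie higher in all sorted libraries, Serpine2 lies lower, and the groups overlap for Plau and Plat.

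The members were proposed from this same contrast, so their differences are given as a description and without a test. As background, edgeR called 5.28% of tested genes at an adjusted p under 0.05, 0.145% higher and 5.14% lower in sorted cells. Calls of the members themselves are left out, since they would rest on the values that proposed them. The log2 difference of Plaur was 1.30 without GFP replicate 2, 1.23 without bulk replicate 1 and 1.79 without bulk replicate 2. With the title number as a replicate block 36% of all genes were called. All sorted libraries lay above all bulk libraries for 14.6% of tested genes and below them for 18.5%, and for 2 and 1 of the 5 members. The median log2 difference over the members was 0.30, against 0.05 over all tested genes.

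Plaur can also be expressed by myeloid cells and neutrophils. The 6 myeloid and Langerhans cell markers summed to 216 and 221 CPM in bulk and to 31.7, 17.0 and 13.9 CPM in GFP 1, 2 and 3. Among 6 neutrophil markers Ly6g was at 0 in every library and the sum ran from 9.18 to 9.35 CPM in bulk and from 8.58 to 26.9 CPM in sorted cells, most of it S100a8, which keratinocytes can also express. Csf3r was lower in every sorted library (0 to 3 counts, against 12 and 9 in bulk 1 and 2), S100a9 was highest in bulk 1 (2.27 CPM), and Mpo and Elane had 0 to 4 counts per library. GFP 2 had the highest S100a8 and Plaur levels. The parts of myeloid cells and neutrophils in the Plaur level were not tested.

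**Figure D2:**
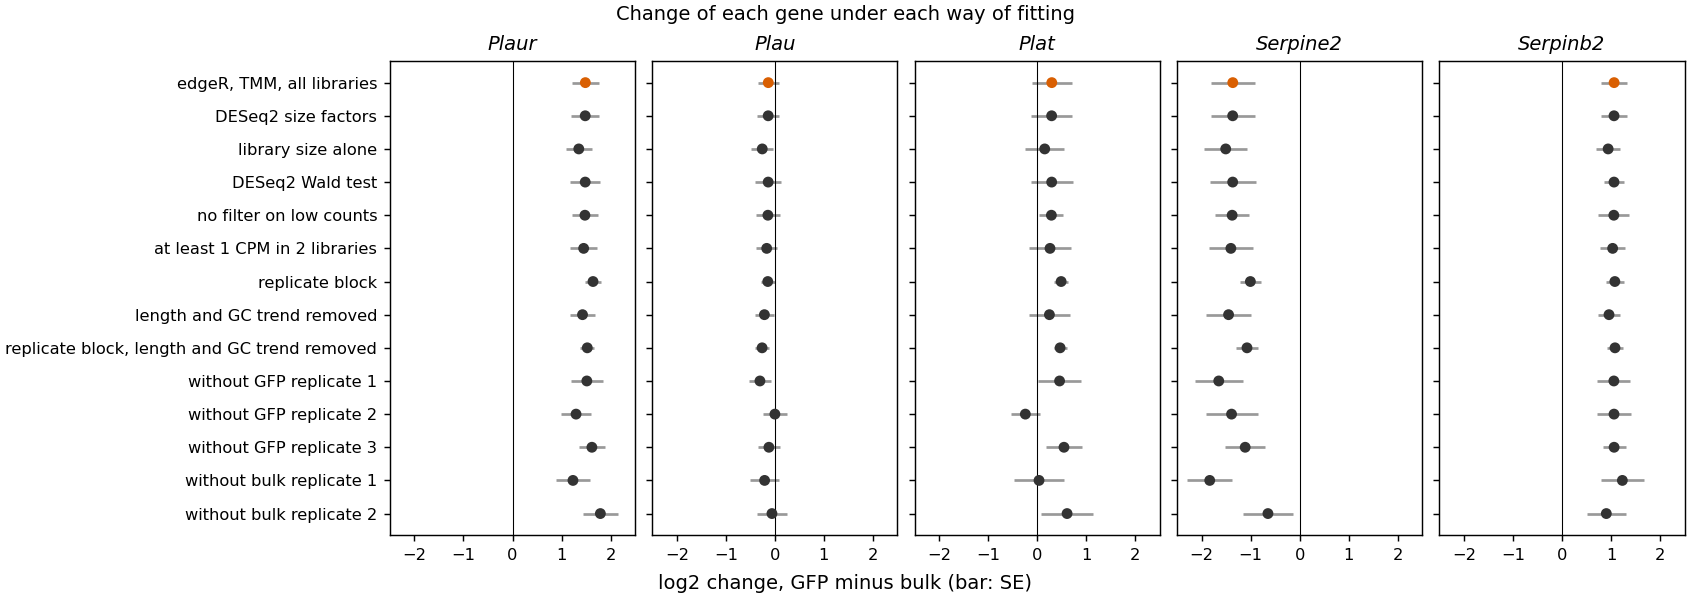
Log2 difference of GFP over bulk with its SE (bars) for each gene under edgeR with TMM scaling (orange) and 13 alternatives (black). Plaur stays between 1.23 and 1.79 and Serpinb2 between 0.90 and 1.23, Serpine2 moves most, from -1.83 to -0.65, and Plat lies on both sides of 0.

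To compare levels between genes, CPM were divided by the length of the longest M21 transcript. On this scale Serpinb2 came first in every library, at 945 and 761 CPM per kb in bulk and at 1766 to 1792 CPM per kb in sorted cells, and Serpine2 last, at 1.04 and 2.38 and at 0.404 to 0.903 CPM per kb. In bulk 1 and 2, Plau (19.8 and 22.1 CPM per kb) was well above Plat (5.75 and 8.67) and Plaur (4.21 and 6.28), whose ranges overlapped with each other. In sorted cells, Plaur reached 11.7 to 18.3 CPM per kb and overlapped with both Plau (15.4 to 23.3) and Plat (5.41 to 14.4). Ranges over libraries therefore did not separate these 3 genes there, but within libraries Plaur lay above Plat in all 3 sorted libraries (14.1 against 6.77, 18.3 against 14.4 and 11.7 against 5.41 CPM per kb in GFP 1, 2 and 3) and below it in both bulk libraries. Plau lay above Plaur in every library except GFP 2.

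**Figure D3:**
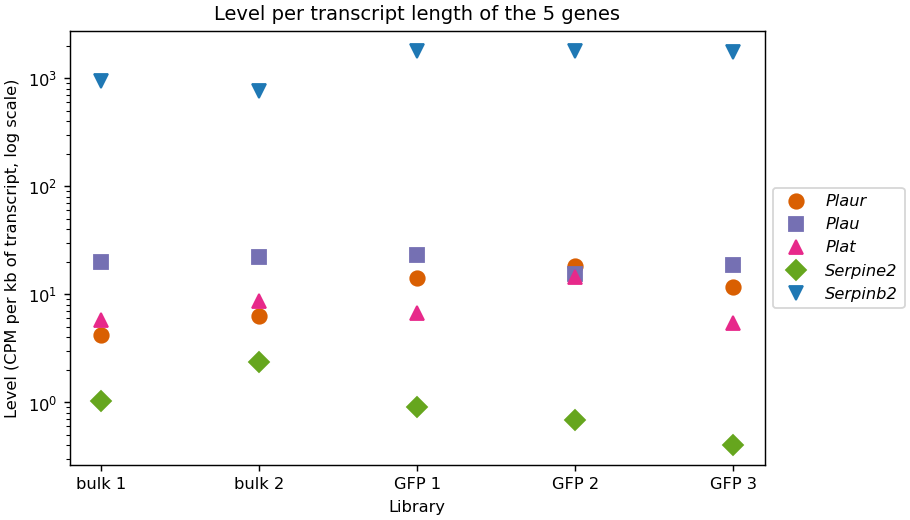
Level per kb of the longest annotated transcript (log axis) of the 5 genes in each library. Serpinb2 lies far above and Serpine2 below the others in all 5 libraries, and Plaur moves from the level of Plat in bulk towards that of Plau in sorted cells.

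Within each library, the ratio of ligand to receptor transcript per kb (Plau over Plaur) was 4.69 and 3.52 in bulk and 1.66, 0.837 and 1.59 in GFP 1, 2 and 3. GFP 2 was the only library in which receptor transcript exceeded that of its ligand. The ratio of Serpinb2 to Plau per kb was 47.8 and 34.4 in bulk and 76.9, 117 and 95.2 in GFP 1, 2 and 3. The activators together stayed in one range, at 25.5 and 30.8 CPM per kb in bulk and 24.0 to 30.1 CPM per kb in sorted cells. These ratios do not measure protein, and the Serpinb2 product is mostly kept inside the cell.

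The genes nearest to Plaur in profile were Mt2 (a metallothionein), Krt16 (a keratin of stressed and outer root sheath keratinocytes), Pxdc1, Hilpda (a lipid droplet protein) and Ch25h (cholesterol 25-hydroxylase). Likeness was the Euclidean distance between log2 CPM values centred on each gene's mean over the 5 libraries, among 8962 genes. It ran from 0.457 for Mt2 to 0.681 for Ch25h, against a median of 1.72. Krt16 was at 325 and 445 CPM in bulk and at 819, 959 and 859 CPM in sorted cells, so like Plaur it was highest in GFP 2 and lower in bulk 1 than in bulk 2. Mt2 had the same order of all 5 libraries as Plaur, at 276 and 335 CPM in bulk and 689, 800 and 538 CPM in GFP 1, 2 and 3. Over 5 libraries in 2 groups such likeness largely restates the group difference.

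The rest of the system was read from a list of 45 genes in 5 roles, of which 36 passed the filter on low counts. edgeR called 2 of the 36 lower in sorted cells, Mmp9 and Itgb3, and none higher, against 5.14% and 0.145% of all tested genes. At an unadjusted p under 0.05, 7 were higher and 7 lower, where 4.28% and 11.6% of all tested genes were. The DESeq2 Wald test called 2 higher and 5 lower, against 1.01% and 7.06% of all genes. With the replicate block 13 were called higher and 9 lower, where 16.4% and 19.7% of all genes were. The median log2 difference of the list was 0.14, against 0.05 over all tested genes.

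Plasminogen itself (Plg), which is made mainly in liver, had 0 to 2 counts per library, and the fibrinogen genes Fga, Fgb and Fgg, Hgf, Vtn, A2m, Cpb2 and Serpina5 also stayed under the filter. These 9 were named after their values were seen. Of the 3 tested inhibitors in this role edgeR called none. At an unadjusted p under 0.05, 0 were higher and 1 lower (4.28% and 11.6% of all tested genes). DESeq2 called Serping1 lower (7.06% of all genes were called lower). Serping1, the C1 inhibitor, was at 1.77 and 2.60 CPM in bulk and 0.386 to 0.975 CPM in sorted cells (edgeR adjusted p = 0.121, and 1.18e-04 with the block). Serpini1 (neuroserpin) ran from 0.287 to 0.557 CPM over all libraries, with a log2 difference of -0.12 ± 0.46 (edgeR adjusted p = 0.927). Serpinf2 (alpha-2-antiplasmin), the plasma inhibitor of plasmin, had 8 to 40 counts per library and a log2 difference of 0.31 ± 0.64 (edgeR adjusted p = 0.858) that changed sign without GFP replicate 3 (-0.10) or bulk replicate 2 (-0.075).

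Of 4 plasminogen binding proteins none was called by edgeR. At an unadjusted p under 0.05, 1 was higher and 0 lower (4.28% and 11.6% of all tested genes). DESeq2 called S100a10 higher (1.01% of all genes were called higher). S100a10, which forms a surface heterotetramer with Anxa2 that binds plasminogen, was at 444 and 301 CPM in bulk and at 1127, 836 and 695 CPM in GFP 1, 2 and 3. Its groups did not overlap, and the log2 difference was 1.25 ± 0.31 (edgeR adjusted p = 0.0603). S100a10 was called with the block (1.82e-17), without GFP replicate 3 (0.0283) and without a filter (4.09e-04). So it was after removal of the trend with length and GC content (0.0341, and 1.97e-10 if the block was added). It was not called without GFP replicate 1 (0.141) or GFP replicate 2 (0.109). Nor was it called with library size alone (0.064), DESeq2 size factors (0.0602) or 1 CPM or more in 2 libraries (0.0677). The log2 difference was 1.56 without bulk replicate 1 and 0.99 without bulk replicate 2. Anxa2 was at 2672 and 2204 CPM in bulk and 2879 to 4165 CPM in sorted cells (edgeR adjusted p = 0.451, and 0.00115 with the block). Eno1, a glycolytic enzyme that also binds plasminogen at the surface, had a log2 difference of 0.03 ± 0.25 (edgeR adjusted p = 0.968).

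Among 14 tested receptor partners and uptake receptors edgeR called only Itgb3, the beta chain of the vitronectin receptor. Itgb3 fell, with a log2 difference of -3.40 ± 0.63 (edgeR adjusted p = 0.0195). Bulk 1 and 2 had 45 and 81 counts of it and GFP 1, 2 and 3 had 9, 5 and 2, near the floor. The call was lost without bulk replicate 1 (adjusted p = 0.1) or bulk replicate 2 (0.119). Endothelial cells also make Itgb3, and 6 endothelial markers summed to 3.73 and 3.02 CPM in bulk and to 0.573 to 1.28 CPM in sorted cells. They were lower in all sorted libraries for 6 of 6, as were 18.5% of all tested genes. A link to Itgb3 was not tested. The epithelial integrin chains Itga3 and Itgb1, which can associate with the urokinase receptor, were at 239 and 305 CPM and at 161 and 170 CPM in bulk. In sorted cells they were at 354 to 460 CPM and 217 to 279 CPM, above bulk in all libraries (edgeR adjusted p = 0.302 and 0.208, and 0.0121 and 0.00537 with the block). Lrp1, the endocytic receptor that clears urokinase bound to serpin, was at 176 and 261 CPM in bulk and 131 to 190 CPM in sorted cells. Its log2 difference of -0.45 ± 0.25 (edgeR adjusted p = 0.453, and 0.00804 with the block) changed sign to 0.075 after removal of the length and GC trend. In this role 3 genes were higher and 4 lower at an unadjusted p under 0.05 (4.28% and 11.6% of all tested genes). DESeq2 called 0 higher and 3 lower, Itgb3, Itgam and Igf2r (1.01% and 7.06% of all genes). Itgam (1.27 and 0.799 CPM in bulk, 0.0887 to 0.362 CPM in sorted cells) was named after its values were seen. So was Igf2r (38.4 and 49.7, and 22.7 to 29.2 CPM). Every sorted library lay above bulk for 5 genes of the role and below for 4, as for 14.6% and 18.5% of all tested genes.

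Mmp9, a gelatinase that plasmin cascades can activate, fell, with a log2 difference of -4.11 ± 0.54 (edgeR adjusted p = 0.00391), and was called in all 13 alternatives. It was at 4.30 and 4.25 CPM in bulk and at 0.342, 0.0754 and 0.311 CPM in GFP 1, 2 and 3. Myeloid cells and Langerhans cells also make Mmp9, and the myeloid sums given above were lower in the same libraries, a link that was not tested. Mmp3 (stromelysin 1), named after its values were seen, was at 5.45 and 3.49 CPM in bulk and 11.2, 6.61 and 9.63 CPM in GFP 1, 2 and 3. All sorted libraries lay above bulk, with a log2 difference of 1.04 ± 0.33, and DESeq2 called it higher while edgeR did not (edgeR adjusted p = 0.148, and 4.65e-07 with the block). The most abundant uncalled genes of this role were the inhibitor Timp3 (log2 difference 0.29 ± 0.26, edgeR adjusted p = 0.643, and 0.00897 with the block), the membrane protease Mmp14 (0.20 ± 0.19, 0.659) and Timp2 (0.09 ± 0.22, 0.885). Mmp14 and Timp2 were called with the block only when the length and GC trend was also removed (0.0304 and 0.0499).

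Of 6 tested genes among activated factors none was called by edgeR or by DESeq2. At an unadjusted p under 0.05, 0 were higher and 1 lower (4.28% and 11.6% of all tested genes). St14 (matriptase), a membrane serine protease of epidermis that can activate urokinase, was at 155 and 194 CPM in bulk and 105 to 132 CPM in sorted cells, without overlap (edgeR adjusted p = 0.249, and 0.0107 with the block). F3 (tissue factor) differed by 0.30 ± 0.21 on the log2 scale (0.555, and 0.0114 with the block) and Tgfb1, a latent growth factor that plasmin can free, by 0.10 ± 0.20 (0.858).

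**Figure D4:**
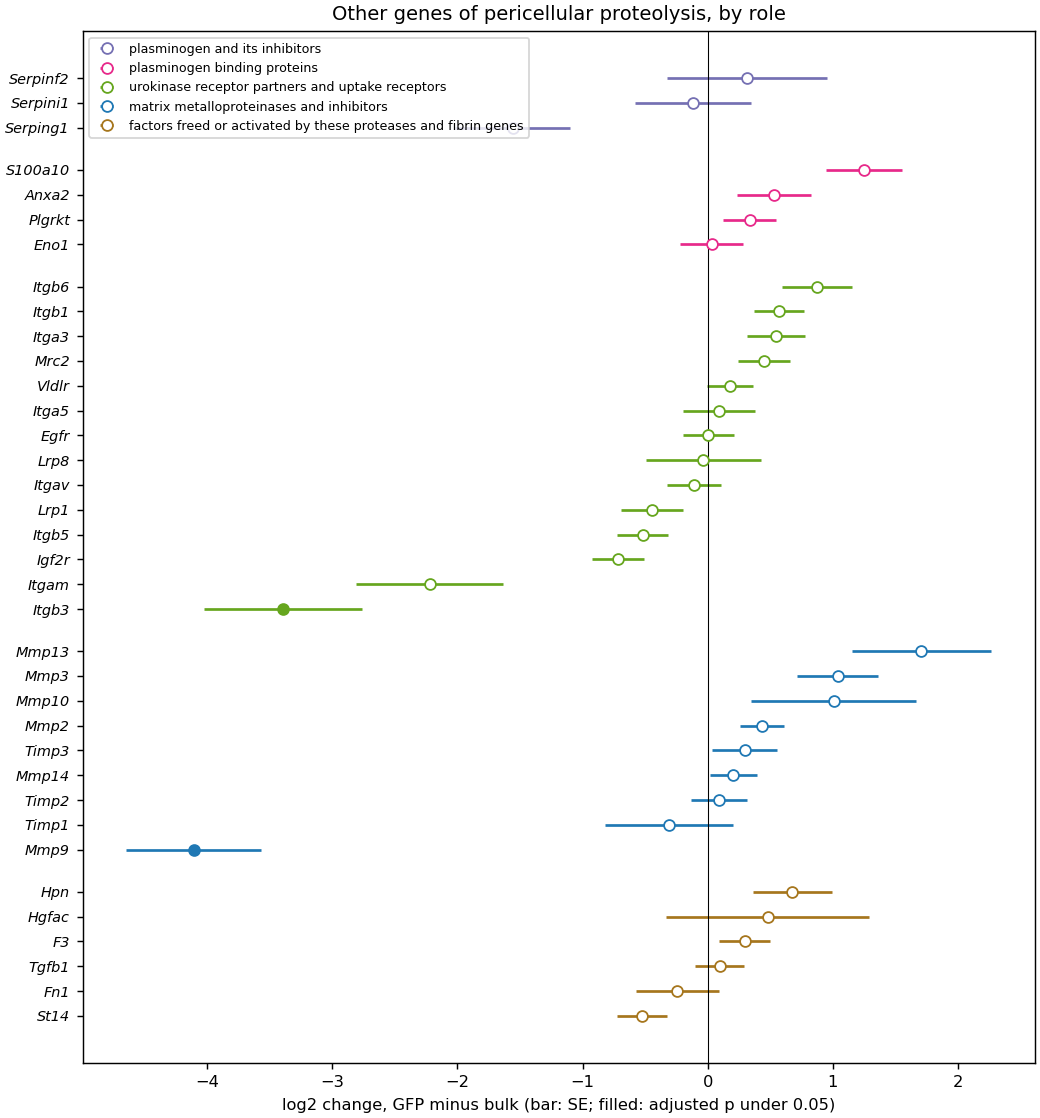
Log2 difference of GFP over bulk with its SE for the 36 tested genes of the list, grouped and coloured by role, with filled points for genes called by edgeR. Mmp9 and Itgb3 are the filled points, and S100a10 has the largest difference above 0 among the plasminogen binding proteins.

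The relatives of Serpinb2 went both ways, 7 above and 7 below a log2 difference of 0. Of 14 tested clade B serpins other than Serpinb2, 3 fell and none rose by edgeR (5.14% and 0.145% of all tested genes), with a median log2 difference of 0.03, against 0.05 over all genes. At an unadjusted p under 0.05, 2 were higher and 4 lower (4.28% and 11.6% of all genes). DESeq2 called 2 higher and 4 lower (1.01% and 7.06%), and the block called 3 and 6 (16.4% and 19.7%). Serpinb13 (headpin), an inhibitor of cathepsins in differentiating epidermis, went from 135 and 128 counts in bulk to 2, 3 and 0 in sorted cells (log2 difference -6.20 ± 0.79, edgeR adjusted p = 0.00342). Serpinb12 was at 105 and 54.7 CPM in bulk and 7.49 to 20.1 CPM in sorted cells (edgeR adjusted p = 0.0107), and was not called without bulk replicate 1 (0.0615). Serpinb6b, with 41 and 95 counts in bulk and 7 to 14 in sorted cells (edgeR adjusted p = 0.0141), lost its call when bulk replicate 1 (0.0729), bulk replicate 2 (0.162) or GFP replicate 2 (0.0529) was left out. Without bulk replicate 1 the list held 1 fall, Serpinb13. The suprabasal marker sum given above moved the same way as these falls, and its part in them was not tested.

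Of 12 genes for AP-1, Ets and Egr1 transcription factors, AP-1 and Ets being families known to act at control regions of Plaur and Plau, edgeR called none. At an unadjusted p under 0.05, 2 were higher and 0 lower (4.28% and 11.6% of all tested genes). DESeq2 called Junb higher and no other (1.01% of all genes were called higher), and the replicate block called 5 higher and 0 lower (16.4% and 19.7%). Their median log2 difference was 0.33, against 0.05 over all genes, with 11 of 12 above 0 and 3 higher in all sorted libraries, as were 14.6% of all genes. Fos, Fosb and Jun overlapped between the groups. All of them were lower in bulk 1 than in bulk 2, and lower in GFP 1 than in GFP 2 and 3. The shared direction therefore does not come from independent genes.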

How the data were processed

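RNA was measured by sequencing in 5 libraries. The authors deposited whole-number counts per versioned Ensembl gene ID without normalization. STAR and the build GRCm39 were used, per the submitters' processing notes; the sources used here do not give versions, counting tool, annotation or strandedness. Symbols came from GENCODE M21 (52073 of 56691 IDs matched), lengths from its longest transcripts. As M21 is on an earlier build, gene coordinates are not given, and 3 of 5 members had a RefSeq promoter window.

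All 18583 genes that passed filterByExpr were fitted with edgeR 4.0.16 in R 4.3.3: TMM scaling, a group term, the quasi-likelihood test (two-sided, 3 residual degrees of freedom), and Benjamini-Hochberg adjustment over all genes, threshold 0.05. CPM are TMM-scaled, and log2 changes are GFP minus bulk ± SE. The test was checked on simulated data, with counts drawn independently for each library. The simulation had no difference in sex or cell make-up and no shared title numbers, so the check does not cover these. Depth leaves little counting error for the members, with 128 counts or more in each library. No label says that replicates came from separate animals. The p-values without the replicate block thus measure the spread between these libraries, which may be technical. GFP 3 differed from GFP 1 and 2 in sex genes (Xist 53714 counts against 0, Ddx3y 62 against 1773 and 1750). It was therefore not a technical repeat of either. Members and lists were chosen with earlier results of these data known. One gene of the pathway is not reported here. Named genes were all members, called list genes, up to 3 of the most abundant uncalled genes per role and the 5 profiles nearest to Plaur. Genes named after their values were seen are marked as such.

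Titles share the numbers 4143 (bulk 1, GFP 1) and 4145 (bulk 2, GFP 2), which were taken as mouse numbers although no label says so. Within each number the genotype is given as WT for bulk and Lrig1 positive for GFP, so values with the block and folds within a number assume a pairing that the labels do not establish. The log2 ratio of bulk 1 to bulk 2 correlated over genes with that of GFP 1 to GFP 2 (Pearson r = 0.474; genes are not independent). The replicate block has 1 residual degree of freedom and rests on these 2 pairs. Its SE was 0.142 for St14, F3, Mmp14 and Egfr alike, so its p-values rest mainly on spread pooled over genes. Small p-values with the block are not evidence from repeats of a gene. Alternatives were DESeq2 1.42.0 size factors and Wald test, library size alone, other filters, the block, a loess trend (span 0.3) on transcript length and GC content, and leaving out each library. Chi-square values between replicates of a group, per degree of freedom, were 149.7 to 457.5, more than counting error gives. None was thus a repeat sequencing of another replicate's library. These values do not tell separate animals from separate preparations of the same animal.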

Additional observations from a re-analysis of the deposited data

How the results depend on the processing

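Plaur, Plau, Serpine2 and Serpinb2 kept the sign of their log2 difference in all 13 alternatives, except that Plau came to 0.00 without GFP replicate 2, and Plat changed sign there (-0.24, with 0.61 the highest value without 1 library). Over all genes, calls higher and lower numbered 27 and 955. They were 188 and 1311 with the DESeq2 Wald test, 10 and 1059 with library size alone, 258 and 1660 without a filter, 70 and 972 after removal of the length and GC trend, 3040 and 3652 under the replicate block, and 2871 and 3085 under the block with that trend removed. Leaving out 1 library gave 1 to 96 higher and 479 to 1109 lower. The list of 45 gave 0 higher and 2 lower, and 2 and 5 with DESeq2, 1 and 2 with the trend removed, 3 and 5 with no filter, 0 and 1 at 1 CPM or more in 2 libraries (where Itgb3 was not tested), 13 and 9 with the replicate block, 16 and 7 with block and trend, and 0 to 1 higher and 1 to 2 lower without 1 library. Clade B serpins gave 0 and 3, and 2 and 4 with DESeq2, 2 and 6 with no filter, 3 and 6 under the replicate block (trend kept or removed), and 0 higher and 1 to 3 lower without 1 library. AP-1 and Ets factors gave 1 higher with DESeq2 and 5 under the replicate block (trend kept or removed). The cause of these shifts was not tested.

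Small log2 differences changed sign in genes that were not called: Serpini1 without GFP replicate 2 (0.10) or bulk replicate 1 (0.03), in a range from -0.36 without 1 library; Serpinf2 under the replicate block (-0.20), also with the trend removed (-0.27), and without GFP replicate 3 (-0.10) or bulk replicate 2 (-0.075), in a range up to 0.75 without 1 library; Eno1 with library size alone (-0.11), at 1 CPM or more (-0.004), and without GFP replicate 1 (-0.14), GFP replicate 2 (-0.001) or bulk replicate 1 (-0.05), in a range up to 0.20 without 1 library; Lrp1 with the trend removed (0.075) and with the replicate block as well (0.14); Timp2 with library size alone (-0.046) and without GFP replicate 1 (-0.062) or bulk replicate 2 (-0.008), in a range up to 0.23 without 1 library; and Tgfb1 with library size alone (-0.032) and without bulk replicate 1 (-0.075), in a range up to 0.28 without 1 library. Fits without a bulk library leave 1 bulk library, assumed to vary like the sorted ones. With 5 libraries and 3 residual degrees of freedom, a gene that was not called is not shown to be unchanged.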
